A study of Mus musculus with 48 samples.

Results

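The genes described here encode inhibitors that MAP kinase signalling itself turns on: the dual-specificity phosphatases Dusp1, Dusp4, Dusp5, Dusp6 and Dusp14, the Sprouty proteins Spry1, Spry2 and Spry4, and the Sprouty-related proteins Spred1 and Spred2. The 10 symbols were chosen with earlier results of these data known. All probe sets with any of these symbols on the array platform were then taken, whatever their values. This gave 10 of the 18193 genes and 25 of the 45037 probe sets on the array. Dusp1, Dusp4, Dusp5, Dusp6, Dusp14 and Spry1 had 1 probe set each, Spry2 had 2, Spry4 had 4, Spred2 had 5 and Spred1 had 8. Of the 25, 20 had a mean log2 intensity over the array-wide median (6.67, the median over all probe sets), and the other 5 lay at means between 5.41 and 6.34. Each gene is shown by its probe set of highest mean, and all 10 of these lay above the median.

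The cells were NIH3T3, an established mouse fibroblast line, grown to confluence and given forskolin, which activates adenylyl cyclase and thereby aligns the clocks of the cells in a dish. RNA was collected hourly between hour 20 and hour 67 after forskolin, and each of the 48 samples went onto its own array, so there was no replicate array at any hour and, among the arrays analysed here, none of cells without forskolin. The later day (hours 44 to 67, 24 arrays) was set against the earlier day (hours 20 to 43, 24 arrays), each of which spans 1 full turn of the clock, and the series asks which transcripts cycle in these cells. All arrays share the line and the treatment, and they cover a single time course. The p-values measure the scatter of arrays around each fit, which also holds slow changes that the fit leaves out. They do not measure the spread between independent time courses.

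When a growth factor binds its receptor, Ras, Raf, MEK and ERK are activated in turn, and ERK drives transcription of its own inhibitors. The dual-specificity phosphatases remove the activating phosphates from ERK, JNK or p38, while Sprouty and Spred proteins act higher up, between the receptor and Raf. In fibroblasts these transcripts are commonly read as a sign of how active the pathway has been, since many of them are unstable and follow ERK closely.

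Promoters of 8 of the 10 genes were taken from the RefSeq table (GRCm38.p6, 250 bases before to 50 after the start of the gene). Entries on a single chromosome were left out of the search, and the promoters of Dusp4 and Spry4 were not examined. Of the 8, 3 are printed 5′ to 3′ on the strand of the gene. They were picked because they differ in the sites through which cyclic AMP and serum signals are known to act. Capitals mark matches on either strand to the cyclic AMP response element (CRE, TGACGTCA), its shorter core TGACG, the E-box CACGTG, the AP-1 site (TGAGTCA or TGACTCA) and the CArG box, the site of serum response factor. The Dusp1 promoter lies at chr17:26508423-26508722 on the minus strand, the Dusp5 promoter at chr19:53528895-53529194 on the plus strand and the Dusp6 promoter at chr10:99262981-99263280 on the plus strand.
Dusp1: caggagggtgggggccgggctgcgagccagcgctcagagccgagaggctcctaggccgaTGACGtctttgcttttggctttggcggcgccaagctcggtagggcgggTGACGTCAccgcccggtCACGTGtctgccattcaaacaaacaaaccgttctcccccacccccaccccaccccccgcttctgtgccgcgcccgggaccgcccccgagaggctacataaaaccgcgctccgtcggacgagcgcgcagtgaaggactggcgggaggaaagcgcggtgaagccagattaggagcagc
Dusp5: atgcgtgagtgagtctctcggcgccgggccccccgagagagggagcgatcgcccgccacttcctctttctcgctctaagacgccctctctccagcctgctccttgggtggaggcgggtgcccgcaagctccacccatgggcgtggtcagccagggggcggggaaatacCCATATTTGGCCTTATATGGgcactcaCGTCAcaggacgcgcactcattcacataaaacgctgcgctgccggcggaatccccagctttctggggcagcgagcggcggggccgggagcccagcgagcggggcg
Dusp6: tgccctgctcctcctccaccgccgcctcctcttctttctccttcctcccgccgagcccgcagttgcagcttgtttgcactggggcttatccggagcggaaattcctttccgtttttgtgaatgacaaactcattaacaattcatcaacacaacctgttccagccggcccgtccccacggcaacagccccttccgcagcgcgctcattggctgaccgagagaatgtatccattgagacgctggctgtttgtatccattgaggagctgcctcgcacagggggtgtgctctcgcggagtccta
Dusp1 held a full CRE from base -143 to base -136, an E-box from -126 to -121 and a further core at -191 to -187, counted from the start of the gene. The full CRE occurs in 1.79% of the 32851 promoters of the table, the core in 20.8%, which includes the full CRE, and the E-box in 7.15%. Dusp5 held adjoining CArG boxes at -82 to -73 and -72 to -63, a motif found in 1.63% of promoters, and a core at -55 to -51. Dusp6 held none of these motifs in this window, and Spred2 held a core at -51 to -47. AP-1 sites, present in 5.2% of all promoters, were in none of the 8. The ETS site CCGGAA, present in 14.9% of promoters, was found in those of Dusp14 and Spry2. A match describes the letters only, and binding was not measured.

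The cells carried the marker profile of fibroblasts throughout. All 8 fibroblast markers lay above the overall median, the lowest at a mean of 16.4, while all epithelial, endothelial and skeletal muscle markers lay below it, with none above 5.59. Of the macrophage markers only Cd68 was above the median, at 10.4, with Ptprc at 5.46 and Adgre1 at 5.44. Fabp4 was the only adipocyte marker above it (Adipoq was at 5.39 and Pparg at 5.56), and the summed level of that list lay between 15.73 and 16.34 in the later day, against 14.91 to 15.92 in the earlier day. Snap25 was the only neuronal marker above it, with a list sum of 14.68 to 15.24 in the later day, against 15.08 to 15.62 in the earlier day. The part of other cells in the results below was not tested. In 10 arrays (hours 20, 22, 24, 36, 38, 40, 43, 45, 46 and 67) the log2 level of β-actin at its 3′ probe set was over 1.4 higher than at its 5′ probe set, a measure of how complete the labelled RNA was, against a median of 1.13 over all arrays. The arrays of hours 52 to 55 had spike-in (BioB) values 0.90 above the others.

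Over the 2 days Dusp6 and Dusp5 went down, Spry4 went up, Spred2 went down by its main probe set, and the other 6 genes did not pass the test. Dusp6 was 1.61-fold lower in the later day, with the lowest adjusted p of the 25 probe sets, and a second Spry4 probe set was 1.95-fold higher. Of the 10 genes 1 was called higher in the later day and 3 lower, by limma's moderated test with Benjamini-Hochberg adjustment over all 45037 probe sets at 0.05, where 12.6% of all probe sets were called higher and 13.8% lower. Among probe sets above the median, as all 10 are, 23.6% were called higher and 22.9% lower, so 4 called of 10 is close to the 46.6% called in either direction there. Over all 25 probe sets 4 were called higher and 4 lower, against 26.5% of all probe sets called either way. The median difference was -0.01 over the 10 genes, against 0.00 over all probe sets above the median. In these bulk samples, fewer cells expressing a gene and less RNA per cell cannot be told apart.

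**Figure D1:**
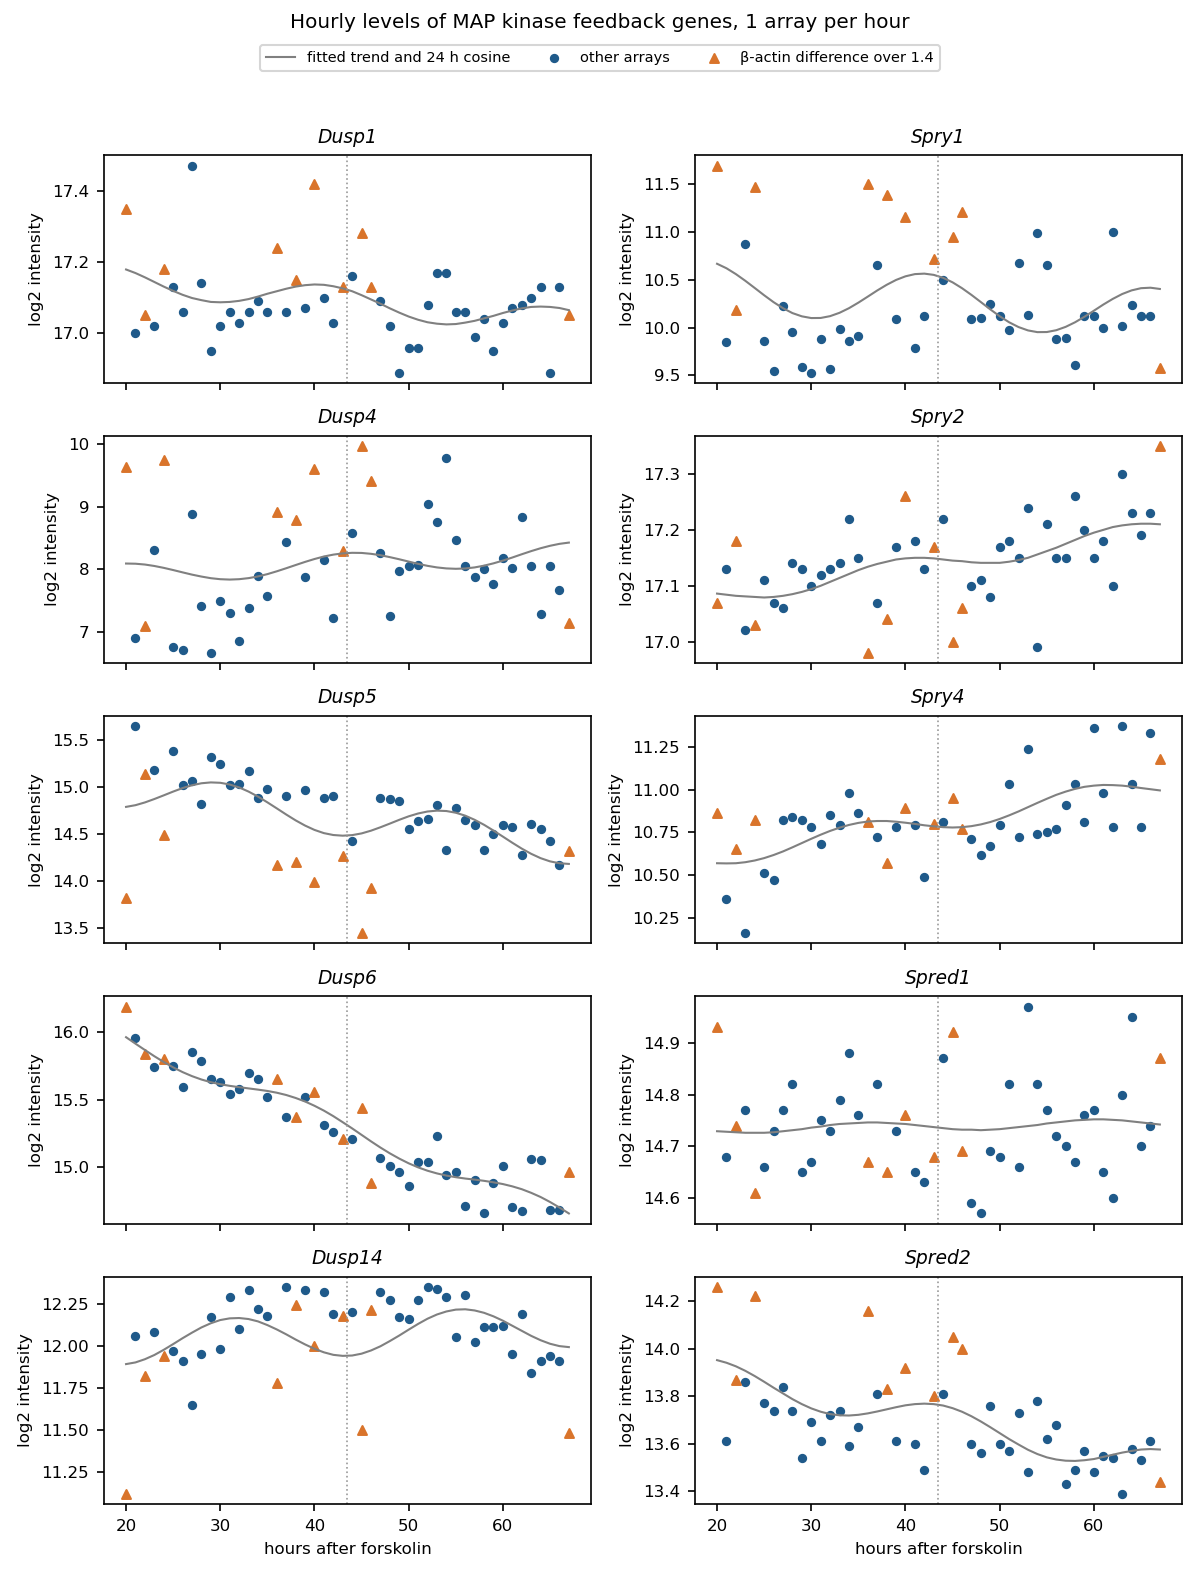
Log2 intensity of the shown probe set of each of the 10 genes (vertical axes, own scale per gene) against hours after forskolin, 1 point per array. Orange triangles are the 10 arrays with a β-actin 3′ minus 5′ difference over 1.4, blue circles the other 38, the grey line the fitted trend plus 24 h cosine and the dotted line the border between the days; Dusp6 declines across the whole course, and most triangles stand high for Dusp4 and Spry1 and low for Dusp5.

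Among the phosphatases, Dusp6, the cytoplasmic phosphatase that acts on ERK alone, declined through most of the 48 h. Its log2 intensity (1415834_at) had a lowest value of 14.66, a median of 14.96 and a highest value of 15.44 in the later day, against 15.21, 15.64 and 16.19 in the earlier day. All 24 arrays of the later day lay below the median of the earlier day, and 22 of them lay below its lowest array. The later day was lower by a log2 difference of -0.68 ± 0.05 (standard error of the fit, adjusted p = 3.36e-14), and 2.23% of probe sets above the median had a more negative difference.

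The means of consecutive 6 h blocks of Dusp6 show when it declined: 15.88 ± 0.17, 15.67 ± 0.12, 15.58 ± 0.12 and 15.37 ± 0.14 over the 4 blocks of the earlier day, then 15.09 ± 0.20, 15.01 ± 0.13, 14.81 ± 0.14 and 14.85 ± 0.19 over the 4 blocks of the later day (SD over 6 arrays each). No step between neighbouring blocks passed the test on its own (adjusted p from 0.083 to 1), and the last 2 block means differed by less than their spread. The last block was 2.04-fold lower than the first (log2 difference -1.03 ± 0.09, adjusted p = 1.13e-12), a contrast in which 25.5% of all probe sets and 47.2% of those above the median were called. As a straight line the slope was -0.68 ± 0.04 per 24 h (adjusted p = 4e-19).

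Dusp5, the nuclear phosphatase specific for ERK, was also lower in the later day but varied far more between neighbouring hours. Its values (1437199_at) ran from 13.45 through a median of 14.56 to 14.88 in the later day, against 13.82, 14.98 and 15.64 in the earlier day. All 24 arrays of the later day were below the median of the earlier day, though the ranges overlapped because the earlier day held several low arrays. The difference was -0.36 ± 0.10, or 1.29-fold lower (adjusted p = 0.00594). The call was lost when the 8 block means stood in for single arrays, a fit with far fewer values (-0.36, adjusted p = 0.0615), and it held in all 48 fits that left out 1 array.

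The low Dusp5 arrays of the earlier day coincided with high β-actin differences. Over the 10 arrays above 1.4, Dusp5 averaged 14.18 ± 0.45, against 14.80 ± 0.33 over the other 38 (SD), and the fitted change per unit of the β-actin difference was -1.01 ± 0.09 (adjusted p = 2.23e-12). With that difference in the fit the day difference remained past the test, and over all alternatives other than leaving out 1 array it lay between -0.49 and -0.32.

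Dusp4, another nuclear phosphatase, of ERK and JNK, did not pass. It was detected at lower levels, and its values (1428834_at) were 7.14 at the lowest, 8.06 at the median and 9.97 at the highest in the later day, against 6.67, 7.72 and 9.75 in the earlier day. The ranges overlapped almost fully, and 20 of 24 later arrays exceeded the median of the earlier day. The difference was 0.36 ± 0.25 (adjusted p = 0.214). It became 0.54 ± 0.19 with β-actin as covariate (adjusted p = 0.0288) and 0.68 ± 0.20 without the 10 arrays above 1.4 (adjusted p = 0.00982), so its call depends on how those arrays are treated, and it was 0.14 once hours 52 to 55 had a term of their own (adjusted p = 0.786).

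Dusp1, the phosphatase of p38 and JNK that is induced within minutes by stress and by growth factors, was nearly level. Its values (1448830_at) were 16.89, 17.07 and 17.28 in the later day at the lowest, median and highest array, against 16.95, 17.07 and 17.47 in the earlier day. Both days had the same median, and the difference was -0.06 ± 0.03 (adjusted p = 0.144). The highest array of the course was hour 27 at 17.47, where the other 5 arrays of its 6 h block lay between 16.95 and 17.14.

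Dusp14, a small phosphatase studied mainly in T cells, had 11.48, 12.14 and 12.35 at the lowest, median and highest array of the later day, against 11.12, 12.09 and 12.35 in the earlier day (1431422_a_at). The days overlapped and the difference was 0.03 ± 0.07 (adjusted p = 0.686). Its block means described a low hump, from 11.83 ± 0.36 in hours 20 to 25 through 12.21 ± 0.12 in hours 38 to 43 and 12.24 ± 0.12 in hours 50 to 55 to 11.88 ± 0.23 in hours 62 to 67. The F-test over the 8 blocks passed (adjusted p = 0.037), but not once hours 52 to 55 had a term of their own (adjusted p = 0.102), nor after centring the arrays on their medians (adjusted p = 0.0561) or quantile normalization (adjusted p = 0.07), nor in 8 of 48 fits that left out 1 array (hours 22, 39, 41, 52, 53, 54, 63 or 67).

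**Figure D2:**
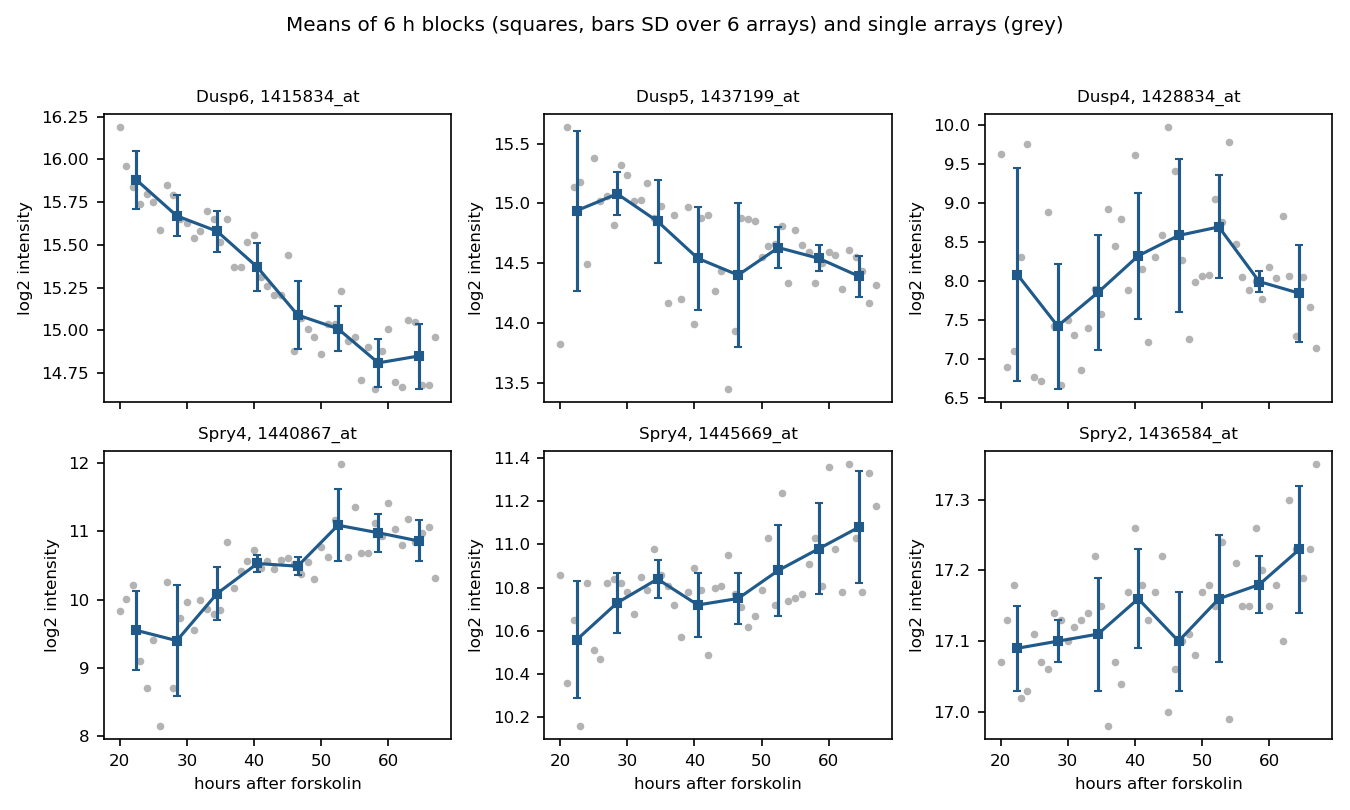
Log2 intensity (vertical axes, own scale per panel) against hours after forskolin for 6 probe sets: blue squares are means of 6 h blocks with bars of 1 SD over 6 arrays, grey points the single arrays. The Dusp6 block means go from 15.88 to 14.85, the block means of Spry4 1440867_at lie higher from hour 50 on than before hour 32, and the bars of Dusp4 and Dusp5 are widest in blocks with high β-actin differences.

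Among the Sprouty genes, Spry4 was higher in the later day on both of its probe sets with a signal. Spry4 dampens signalling from growth factor receptors to Ras and is a common ERK target. Its brighter probe set (1445669_at) had 10.62, 10.81 and 11.37 at the lowest, median and highest array in the later day, against 10.16, 10.79 and 10.98 in the earlier day. The medians were nearly equal, while 9 later arrays exceeded every earlier array and 6 earlier arrays lay below every later array. The difference was 0.21 ± 0.06, or 1.16-fold higher (adjusted p = 0.00322).

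The other Spry4 probe set (1440867_at) had 10.30, 10.79 and 11.98 at the lowest, median and highest array in the later day, against 8.15, 9.98 and 10.84 in the earlier day. All 24 later arrays lay above the median of the earlier day, and 17 earlier arrays lay below the lowest later array. The difference was 0.96 ± 0.14 (adjusted p = 1.65e-07). Block means were 9.55 ± 0.58, 9.40 ± 0.81, 10.09 ± 0.39 and 10.53 ± 0.12 in the earlier day and 10.49 ± 0.13, 11.09 ± 0.53, 10.98 ± 0.28 and 10.86 ± 0.30 in the later day, so its level was widest spread in the first 12 h and changed little after hour 50. Both probe sets lost the call when block means stood in for arrays (adjusted p = 0.0937 and 0.0941), and both held it in all 48 fits that left out 1 array. They correlated with r = 0.53 over 48 arrays, and for neither was the change per unit of the β-actin difference called (adjusted p = 0.0832 and 0.41). The remaining Spry4 probe sets stayed between 5.42 and 5.47 on every array, at the floor of the data.

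Spry2, the best-studied Sprouty, had 16.99, 17.17 and 17.35 at the lowest, median and highest array in the later day, against 16.98, 17.13 and 17.26 in the earlier day (1436584_at). The ranges overlapped, and the difference of 0.05 ± 0.02 did not pass (adjusted p = 0.0691), though it did in 4 of 48 fits that left out 1 array (hours 40, 45, 54 or 62). The trend passed, at 0.06 ± 0.02 per 24 h (adjusted p = 0.0105), and was lost after quantile normalization (adjusted p = 0.0521). The dimmer probe set 1421656_at was higher by 0.12 ± 0.04 (adjusted p = 0.017), and the 2 correlated with r = 0.35. The call of 1421656_at held in all 48 fits that left out 1 array. It was lost without hours 20 to 25 (adjusted p = 0.112) and on block means (adjusted p = 0.125). It was also lost with a prior variance by intensity (adjusted p = 0.0509) and without the high β-actin arrays (adjusted p = 0.0567). The same held with the term for hours 52 to 55 (adjusted p = 0.067).

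Spry1 had 9.58, 10.12 and 11.21 at the lowest, median and highest array in the later day, against 9.53, 10.03 and 11.69 in the earlier day (1415874_at). The days overlapped, and the difference was -0.04 ± 0.16 (adjusted p = 0.827). The 5 highest arrays of the earlier day all had a β-actin difference over 1.4, and the difference was 0.26 (adjusted p = 0.0765) without the 10 arrays above that value.

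Spred proteins bring neurofibromin, which switches Ras off, to the membrane. Spred1 had 8 probe sets, of which 6 lay between means of 14.1 and 14.7 and none differed between the days by more than 0.12. Its brightest (1423160_at) had 14.57, 14.73 and 14.97 at the lowest, median and highest array in the later day, against 14.61, 14.73 and 14.93 in the earlier day. The difference was 0.02 ± 0.03 (adjusted p = 0.586). Of the other 7, 1452911_at was called higher (0.08 ± 0.03, adjusted p = 0.0233) and the dimmer 1445228_at lower (-0.12 ± 0.04, adjusted p = 0.0458). The probe sets of this gene thus gave no common direction. The call of 1445228_at was lost in 17 of 48 fits that left out 1 array (hours 20, 25, 27, 33, 34, 39, 44, 46, 49, 52, 53, 54, 55, 58, 59, 61 or 65). The call of 1452911_at held in all 48. Both calls were lost without hours 20 to 25 (adjusted p = 0.0763 and 0.0938) and on block means (adjusted p = 0.07 and 0.163). That of 1452911_at was also lost after quantile normalization (adjusted p = 0.0528) and without the high β-actin arrays (difference 0.047, adjusted p = 0.0569). The call of 1445228_at was also lost after centring, with a prior variance by intensity and with the term for hours 52 to 55.

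Spred2 was lower in the later day on its brightest probe set (1434403_at), with 13.39, 13.58 and 14.05 at the lowest, median and highest array, against 13.49, 13.74 and 14.26 in the earlier day. The ranges overlapped, with 22 of 24 earlier arrays above the median of the later day. The difference was -0.16 ± 0.05, or 1.12-fold lower (adjusted p = 0.0141). The next probe set of this gene, 1436892_at, differed by 0.12 ± 0.09 (adjusted p = 0.26) and ran against the first over the 48 arrays (r = -0.84). With the 5 probe sets averaged the difference was 0.01 (adjusted p = 0.735), and the call was also lost without hours 20 to 25 (adjusted p = 0.068) and on block means (adjusted p = 0.249), so a fall of Spred2 rests on a single probe set.

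**Figure D3:**
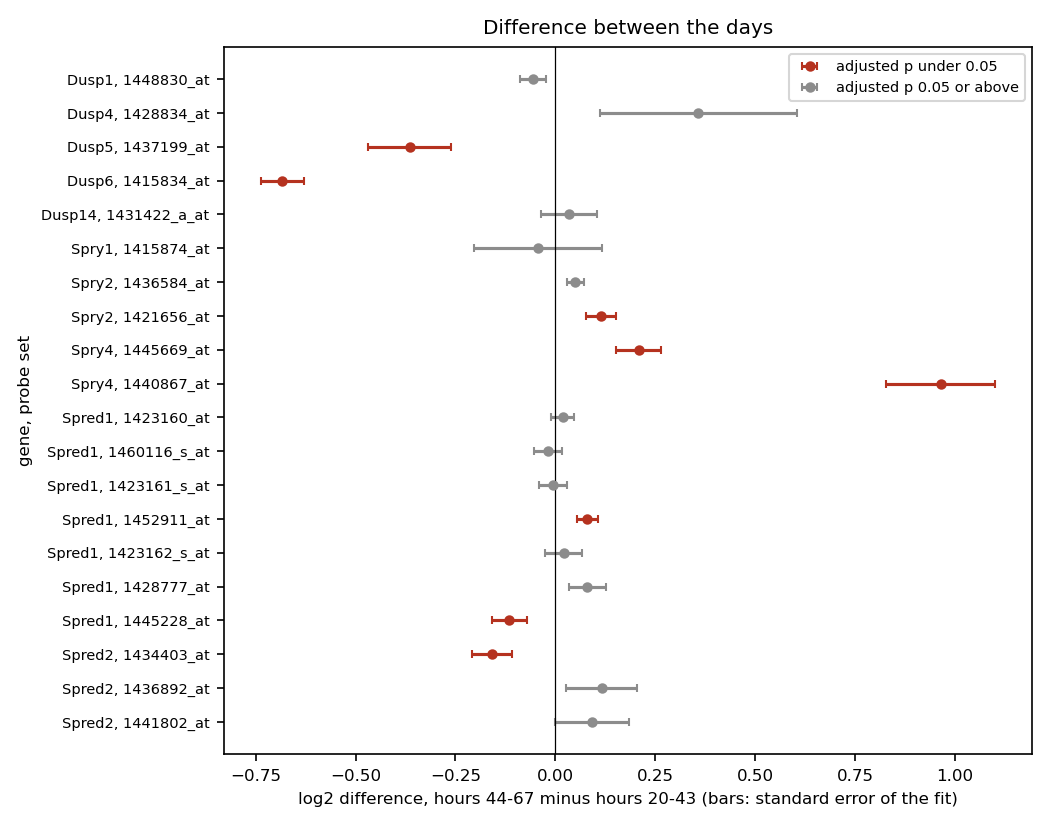
Log2 difference, hours 44 to 67 minus hours 20 to 43 (horizontal axis), of the 20 member probe sets with a mean above the median, with bars of 1 standard error of the fit. Red points passed the test (adjusted p under 0.05) and grey points did not; Spry4 1440867_at at 0.96 and Dusp6 at -0.68 lie farthest from 0.

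The 2 Spred2 probe sets moved in opposite ways with the β-actin difference: 1434403_at changed by 0.42 ± 0.05 per unit (adjusted p = 2.07e-10) and 1436892_at by -0.88 ± 0.06 (adjusted p = 3.38e-17). Dusp4 changed by 1.83 ± 0.32 per unit (adjusted p = 5.62e-06) and averaged 8.86 ± 1.05 in the 10 arrays above 1.4, against 7.89 ± 0.69 in the other 38 (SD). Spry1 changed by 1.20 ± 0.19 (adjusted p = 1.23e-06) and averaged 10.98 ± 0.66, against 10.10 ± 0.38. These 2 genes were also the pair of members that correlated most closely (r = 0.82).

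Dusp1 changed by 0.20 ± 0.04 per unit (adjusted p = 0.000325) and Dusp14 by -0.42 ± 0.10 (adjusted p = 0.000374), while the change of Dusp6, 0.14 ± 0.07, did not pass (adjusted p = 0.122). Of the 20 member probe sets above the median 4 were called higher and 8 lower with the β-actin difference, where 34.4% of all probe sets above the median were called higher and 31.5% lower. This fit was added after the data had been seen. The part of array quality in the differences between days was not tested beyond the fits with the covariate and without those arrays, in which Dusp6, Dusp5 and both Spry4 probe sets kept their calls.

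**Figure D4:**
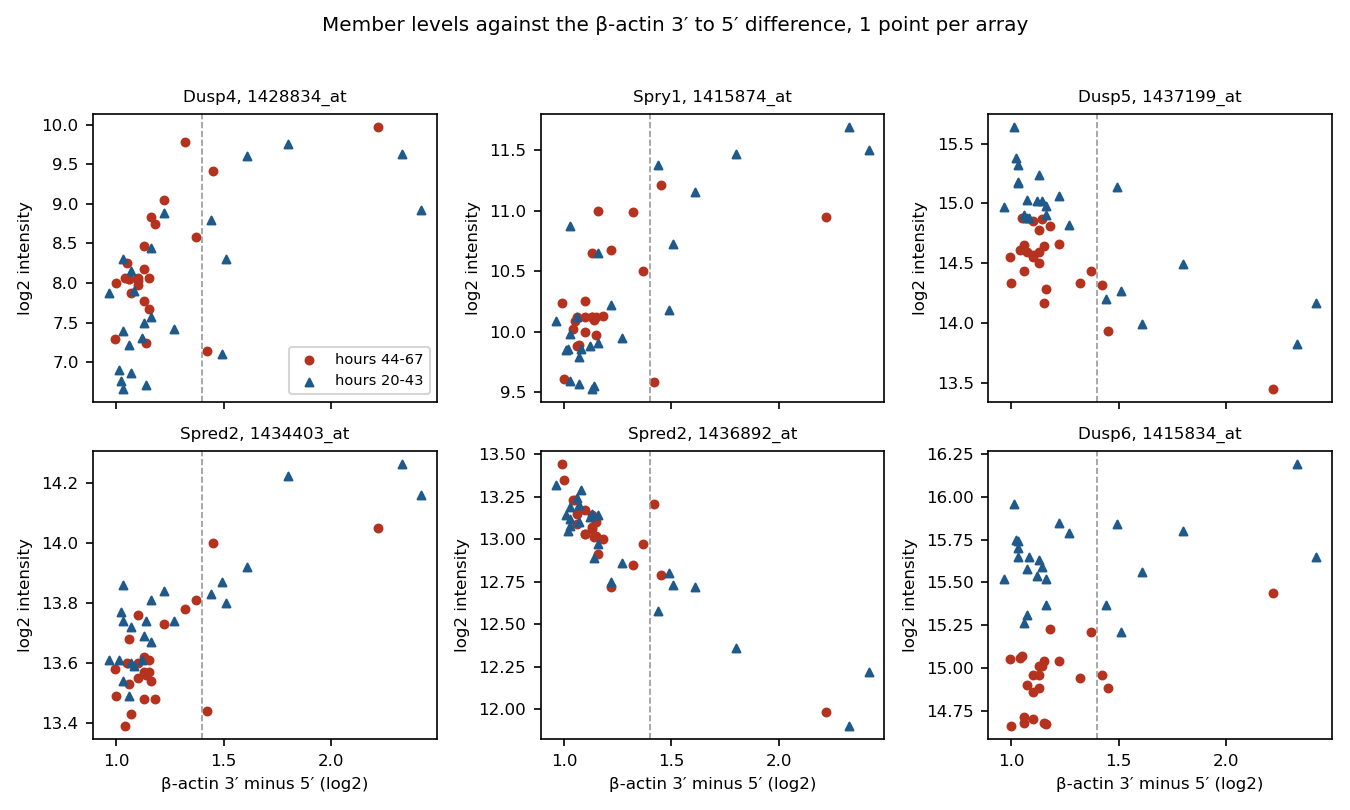
Log2 intensity (vertical axes, own scale per panel) against the β-actin 3′ minus 5′ difference (horizontal axis, log2) for 6 member probe sets, 1 point per array; red circles are hours 44 to 67, blue triangles hours 20 to 43, and the dashed line is at 1.4. Dusp4, Spry1 and Spred2 1434403_at lie higher and Dusp5 and Spred2 1436892_at lower at large differences, while for Dusp6 nearly all red circles lie below the blue triangles.

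No daily rhythm was called in any of the 10 genes over the 48 arrays. A 24 h cosine was called in 0 of 25 member probe sets by limma's moderated F-test (lowest adjusted p = 0.489), where it was called in 0.293% of all probe sets. With 1 array left out, Spred1 1452911_at gained the call without hour 36 (limma adjusted p = 0.0425), a fit in which the calls over all probe sets were 399 in place of 132. An unadjusted p under 0.05 was reached by 2 of 10 genes, Dusp5 (amplitude 0.20 ± 0.08, p = 0.039 by limma) and Dusp14 (0.13 ± 0.05, p = 0.0477 by limma), and by 2 of the 25 member probe sets, against 9.45% of all probe sets and 17.2% of those above the median. The largest fitted amplitude was that of Spry1, 0.27 ± 0.11 (adjusted p = 0.583), in whose series the high β-actin arrays stand out. The 12 h and 8 h cosines, the harmonics on which the study centred, were called in 0 of 25 as well, where 0% of all probe sets were called. At an unadjusted p under 0.05 the 12 h cosine stood in 0 of 10 genes and 0 of 25 probe sets, against 1.29% of all probe sets and 2.16% of those above the median, and the 8 h cosine in 1 of 10 genes and 6 of 25 probe sets, against 44.5% and 17.2%. Spred2 1436892_at gained the 8 h call without hour 29 (limma adjusted p = 0.0488), when 15074 of all 45037 probe sets also had it.

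Fisher's G-test, which looks for any dominant period, called Dusp6 (adjusted p = 5.39e-07) and Dusp14 (adjusted p = 0.0433), both at 48 h, the length of the course, where 46.3% of all probe sets were called at any period and 45.2% at 48 h (33.2% and 31% of those above the median). Over the 25 probe sets it called 4, the others being Spry4 1440867_at (adjusted p = 3.23e-05) and Spry4 1422020_at at the floor (adjusted p = 0.0437), also at 48 h. At 24 h it called 0 of 10, against 0.782% of all probe sets and 1.53% of those above the median. A change of the 24 h cosine between the days was called in 1 of 10 genes, Dusp14, where it was called in 47.7% of all probe sets and 19.3% of those above the median. With a straight line removed first, Fisher's G-test called none of the 25 (adjusted p of Dusp6 0.748, of Dusp14 0.421). Fits of 20 to 30 h explained at most 18.5% of the variance left by the trend in any member above the median.

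Slow changes of any shape were tested as differences among the 8 blocks. The F-test passed in 6 of 10 genes (Dusp6, Dusp5, Dusp14, Spry2, Spry4 and Spred2), where it passed in 62.4% of all probe sets and 55.6% of those above the median. Besides Dusp14, calls were lost for Dusp5 (adjusted p = 0.041) in 19 of 48 fits that left out 1 array (hours 21 to 23, 25 to 27, 29 to 33, 35, 46, 52, 53, 55, 62, 66 or 67), after centring, after quantile normalization and with the term for hours 52 to 55 (adjusted p = 0.073, 0.0787 and 0.0678). Spry2 (adjusted p = 0.0221) lost its call without hour 63 or 67, after centring, after quantile normalization and without the high β-actin arrays (adjusted p = 0.149, 0.0763 and 0.0976), and Spry1 gained one without hour 36 (adjusted p = 0.0409). The count was 3 of 10 without hour 67, after centring and after quantile normalization. The linear trend was up in 2 genes, Spry2 and Spry4, and down in 3, Dusp5, Dusp6 and Spred2, where 14.2% of all probe sets went up and 16.2% down, and 26.4% each way of those above the median.

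Set beside the rest of the pathway, the members did not move as a block. Most measured ERK targets and all cyclic AMP targets of the lists used here were lower in the later day. The lists were chosen with earlier results of these data known, so their counts are a description and not independent support. Of 15 measured ERK targets 9 were lower in the later day, 1 was higher and 5 did not pass, with a median difference of -0.39, against 0.00 over all probe sets above the median, of which 22.9% were called lower. Egr3, an early growth response factor, had -1.02 ± 0.09, Fosl1, an AP-1 subunit, -0.96 ± 0.10, Phlda1 -0.95 ± 0.06 and Myc -0.74 ± 0.08, while Egr1 was higher by 0.17 ± 0.06. All 8 cyclic AMP targets were lower, with a median of -0.25, led by the nuclear receptors Nr4a1 (-1.90 ± 0.15), Nr4a2 (-0.81 ± 0.06) and Nr4a3 (-0.54 ± 0.08) and by the clock gene Per1 (-0.26 ± 0.08). The difference of Dusp6, -0.68, lies within the range of the ERK targets and within that of the cyclic AMP targets.

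Other inhibitors were mixed. For this and the following lists, 23.6% of all probe sets above the median were called higher and 22.9% lower. Of 7 other MAP kinase phosphatases 3 were higher and 3 lower. Dusp3 had 0.71 ± 0.06, Dusp10, which acts on JNK and p38, 0.45 ± 0.04, and Dusp7, an ERK phosphatase close to Dusp6, 0.32 ± 0.08. Of the 3 lower genes Dusp16 (-0.10 ± 0.03) lay above the median of all probe sets. Dusp9 (-0.13 ± 0.05) and Dusp8 (-0.01) lay below it. The mean of Dusp7 was 15.35 in the later day, against 15.02 in the earlier day, so these related cytoplasmic ERK phosphatases, Dusp7 and Dusp6, differed in sign. Of 11 other feedback inhibitors 3 were higher and 1 lower, namely Lrig1, which restrains receptors of the EGF family (0.62 ± 0.06), Il17rd, an inhibitor of FGF signalling (0.48 ± 0.05), Dab2ip (0.22 ± 0.03) and Spry3 (-0.47 ± 0.03). Spry3 and Spry4 thus also differed in sign.

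Among 13 receptors and adaptors 7 were higher and 2 lower in the later day, with Gab1 at 0.45 ± 0.06, Fgfr1 at 0.23 ± 0.04, Pdgfrb at 0.20 ± 0.04 and Met at 0.18 ± 0.02. Of the Ras, Raf and ERK cascade 7 genes were analysed here, of which 0 were higher and 4 lower: the scaffold Ksr1 (-0.42 ± 0.08), Araf (-0.19 ± 0.06), Rps6ka3 (-0.17 ± 0.02) and Map2k2 (-0.15 ± 0.05). Of 10 genes of the JNK and p38 cascades 1 was higher and 4 lower, with Mapk11 at -0.75 ± 0.15, Map2k6 at 0.15 ± 0.05, Map2k4 at -0.12 ± 0.02 and Mapk9 at -0.07 ± 0.02. Among 6 fibroblast growth factors Fgf7 was lower (-0.33 ± 0.02) and Fgf10 higher (0.31 ± 0.08), and the other 4 were below the median of all probe sets.

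**Figure D5:**
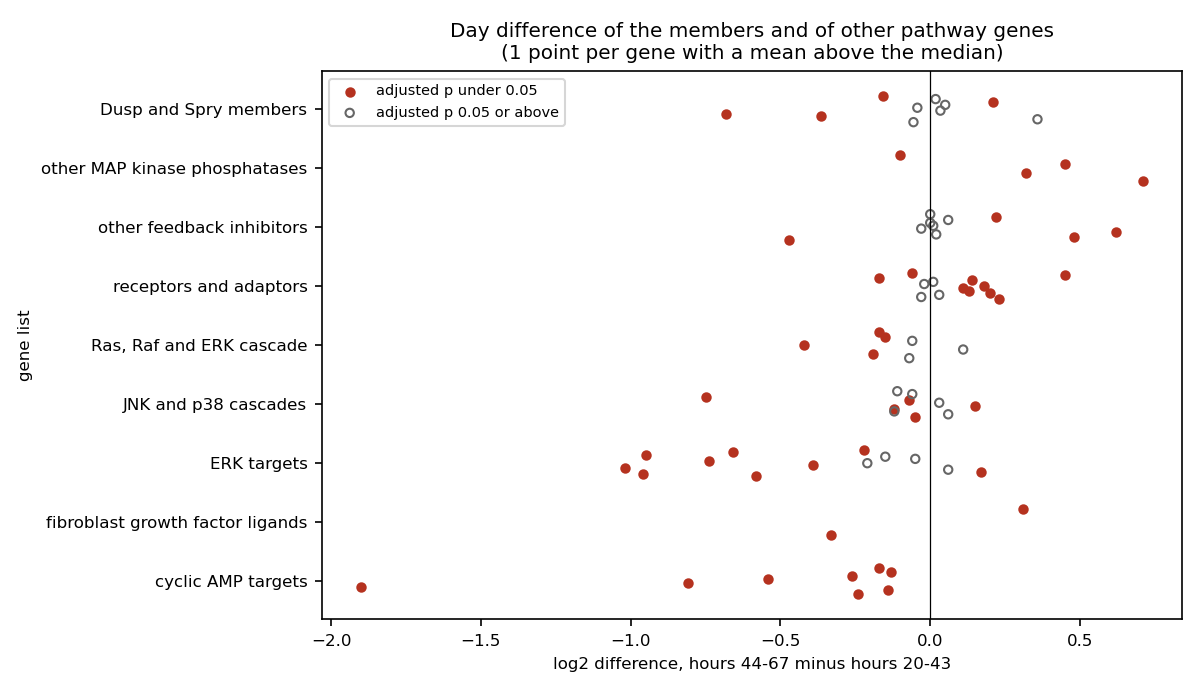
Log2 difference, hours 44 to 67 minus hours 20 to 43 (horizontal axis), of the 10 members and of 8 gene lists of the same pathways (rows), 1 point per gene whose mean lies above the median of all probe sets. Filled points passed the test and open points did not; the members spread to both sides of 0, while the cyclic AMP targets all lie below it.

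The genes whose hourly course was most like that of each member, by Pearson correlation of log2 values over 48 arrays among probe sets above the median, were found as a description, since all series share the arrays, their quality and any trend. For Dusp6 they were Il11, a cytokine (r = 0.94, day difference -2.42), and Ahr, the dioxin receptor (r = 0.94, day difference -1.57). For Dusp5 they were Dtl (r = 0.93) and Srxn1 (r = 0.92), for Spred2 Gfer and Abcf1 (r = 0.93 each), for Spry1 Ogdh (r = 0.92) and Rpn1 (r = 0.91) and for Dusp4 Vps11 (r = 0.89) and Etfa (r = 0.88). The closest courses to the other genes correlated less: Nfix (r = 0.81) and Dhrs7 (r = 0.80) for Dusp14, Ptges and Pcgf5 (r = 0.80 each) for Dusp1, Vamp7 (r = 0.79) and Rbms3 (r = 0.78) for Spry2, Lysmd3 (r = 0.75) and C130030K03Rik (r = 0.74) for Spry4, and Ift80 and Ciao2a (r = 0.65 each) for Spred1.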

How the data were processed

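Forskolin-treated NIH3T3 cells were profiled on Affymetrix mouse genome arrays, 1 per hour. The authors deposited 1 linear intensity per probe set and array, after background correction and normalization. The methods name GCRMA for these values and MAS5 for present calls, while the submitters' processing notes name MAS5 alone, with software versions not given in the sources used here. The scale constant is unknown, so levels are read within the series only.

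Intensities were taken to log2 with no constant added and no filter on low values. The 64 control probe sets were left out of tests. A symbol came from the platform table, updated through gene identifiers, for the 34945 probe sets with 1 symbol, while 932 had several and 9160 none. Tests used limma 3.58.1 in R 4.3.3 with Benjamini-Hochberg adjustment over 45037 probe sets. The day contrast and the trend carried a 24 h cosine, and the 24 h cosine carried a trend. COSOPT, named in the methods, was not used, and Fisher's G-test had its exact p over 23 periods. Tested on simulated data with independent noise, the day contrast recovered 98.5% of changes of 1 log2 unit and the cosine test 96% of amplitudes of 0.5. These sizes exceed the largest day difference (0.96) and the largest 24 h amplitude (0.27) of the members. Recovery of smaller effects, or with effects shared by the probe sets of an array, was not tested. Figures were drawn with matplotlib 3.10.9.

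The members, pathway lists and markers were chosen with earlier results of these data known. The rule took in all member probe sets, of which the dim and like ones are given as ranges and counts, with each gene shown by its brightest. It also named up to 4 genes per pathway list with the largest day difference past the test and the 2 closest courses per gene. Egr1, the 1 ERK target called higher, and the phosphatases Dusp8 and Dusp16 were named after their values were seen. Alternatives covered scaling, array quality, low values, prior variance, block means and single arrays left out. The number of arrays limits the precision. Probe sets with names ending in s_at or x_at may also match other transcripts.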

Additional observations from a re-analysis of the deposited data

Results flagged for a closer look

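The 24 h cosine changed between the days, in amplitude or phase, in 6 of the 25 probe sets by limma's interaction test, in a series where 47.7% of all probe sets were called. Adjusted p was 0.0173 for Dusp14 (amplitude 0.21 in the later day and 0.18 in the earlier day, with fitted peaks at hours 52.9 and 35.6) and 0.00394 for Spry4 1440867_at (0.29 in the later day and 0.70 in the earlier day). The other 4 probe sets lay at the floor of the data with amplitudes of at most 0.01 in either day: 0.00242 and 0.00201 for Spry4, 0.0216 for Spred1 and 0.00305 for Spred2. With a term for hours 52 to 55 Dusp14 (adjusted p = 0.116) and Spry4 1440867_at (adjusted p = 0.123) were no longer called.

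Single arrays stood far from the other 5 of their 6 h block in 10 of 80 groups of a gene and a block. The rule flags about 1 group in 20 when values are independent and normally distributed. The groups of different genes share the same arrays, and hours 27 and 36 were flagged for more than 1 gene. The share flagged over all probe sets was not computed, so the count cannot be read as particular to these genes. Of these 10 values 6 came from arrays of high β-actin difference. Dusp1 was high at hour 27 (17.47, the others 16.95 to 17.14), hour 36 (17.24, the others 17.03 to 17.09) and hour 40 (17.42, the others 17.03 to 17.15) and low at hour 65 (16.89, the others 17.05 to 17.13). Dusp4 was high at hour 27 (8.88, the others 6.67 to 7.50), and Dusp5 low at hour 36 (14.17, the others 14.88 to 15.17). Dusp14 was low at hour 20 (11.12, the others 11.82 to 12.08) and at hour 45 (11.50, the others 12.17 to 12.32). Spry2 was low at hour 54 (16.99, the others 17.15 to 17.24), and Spred2 was high at hour 36 (14.16, the others 13.59 to 13.81).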

How the results depend on the processing

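The day difference of Dusp6 kept its direction and its call in all 48 fits that left out 1 array (-0.70 to -0.66). It also kept both in all 11 other settings (-0.70 to -0.62), where the highest adjusted p by limma was 0.0432. Dusp5 and Spry4 did so in all 48 and in 10 of 11, losing the call on block means only, and Spred2 in all 48 and in 8 of 11. Over all single member results and settings other than leaving out 1 array, 916 were unchanged in direction and call, 45 lost a call, 11 gained one and 18 turned sign, and the cause was not tested. Averaging all probe sets turned the day difference of Spred2 to 0.012 and its trend to 0.02. With the β-actin covariate the day differences of Dusp14 and Spry1 became -0.009 and 0.08 and their trends -0.014 and 0.04. Without the 10 high β-actin arrays the day differences of Spry1 and Spred2 1436892_at became 0.255 and -0.026, and the trends of Spry1, Dusp14, Spred1 and Spred2 1436892_at 0.219, -0.002, -0.001 and -0.028. Without hours 20 to 25 the day differences of Dusp14 and Spry1 became -0.023 and 0.057, and the trend of Dusp14 -0.036. A term for hours 52 to 55 turned the trends of Dusp4 and Spred1 to -0.075 and -0.011, and quantile normalization that of Spred1 to -0.001. None of these reversed values passed the test. With 1 array left out, the day difference of Dusp14 ranged from -0.003 to 0.056 (negative without hour 20), that of Spry1 from -0.087 to 0.014 (positive without hours 20, 24, 36, 38 or 67), the trend of Dusp14 from -0.009 to 0.092 (hour 20) and that of Spred1 from -0.005 to 0.022 (hours 53, 64 or 67). The trend of Dusp5 lost its call without hour 21. It also lost it without hours 20 to 25 (-0.263, adjusted p = 0.0616 by limma). The same held with the term for hours 52 to 55 (-0.275, adjusted p = 0.0512 by limma). Genes called higher in the later day, 1 of 10, were 2 with all probe sets averaged, with the covariate and without the high β-actin arrays, 0 on block means and 1 to 2 with 1 array left out, and genes called lower, 3 of 10, were 1 on block means. Genes with an upward trend, 2 of 10, were 1 on block means and after quantile normalization. The block test called 6 of 10, against 3 after centring or quantile normalization and 3 to 7 with 1 array left out. The G-test called 2 of 10, against 1 after centring and 0 with the trend removed. The change of the cosine between days was called in 1 of 10, against 0 after centring, after quantile normalization, among probe sets above the median only and with the term for hours 52 to 55, and 1 to 2 with 1 array left out (2 without hour 24 or 27). Over all probe sets, the day contrast called 5688 higher and 6229 lower, against 837 and 960 on block means. The trend called 6400 up and 7286 down, against 3008 and 2951 on block means, 13066 down without the high β-actin arrays and 6150 to 16905 down with 1 array left out. The 24 h cosine called 132, against 79 with the covariate, 53 without hours 20 to 25, 223 above the median only, 251 with the term for hours 52 to 55, 55 without the high β-actin arrays and 67 to 399 with 1 array left out. The 8 h cosine called 0, against 1 with the covariate, 14758 with a prior variance by intensity and 0 to 17467 with 1 array left out. The block test called 28082, against 11024 after centring, 12036 above the median only, 14049 after quantile normalization and 14593 with the term for hours 52 to 55. The change of the cosine called 21504, against 1241, 2131, 6168 and 494 in the same 4 settings. The G-test called 20874, against 5848 after centring and 766 with the trend removed. Limits: with 1 array per hour and no replicate arrays, hour and array cannot be told apart, and signal near the floor limits the 5 dim member probe sets.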
